A study of Mus musculus with 3 samples.

Results

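Small leucine-rich proteoglycans are secreted proteins built around a run of leucine-rich repeats, most of which carry chains of sugar. They bind the surface of collagen fibrils, set the spacing and thickness of those fibrils, and hold growth factors in the matrix. Biglycan and decorin carry chains of chondroitin or dermatan sulfate, while fibromodulin, lumican and osteomodulin can carry keratan sulfate. In the heart, fibroblasts and other mesenchymal cells are known as their main source, and decorin is known to bind TGF-beta and to restrain its action.

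The 8 genes described are decorin (Dcn), biglycan (Bgn), asporin (Aspn), lumican (Lum), fibromodulin (Fmod), the proline- and arginine-rich repeat protein prolargin (Prelp), osteomodulin (Omd) and osteoglycin (Ogn). They were found by gene symbol, and all 8 stand among the 18245 genes of the deposited table. Messenger RNA was sequenced from 3 kinds of cultured cell from C57BL/6 mouse hearts, with no genetic change stated. CDC are cardiosphere-derived cells, which are mesenchymal cells used at passage 3. They were grown, by way of floating spheres, from ventricle epicardium, the thin outer layer of the heart, of 6-week-old mice. CDC-EpiC are an epithelial clone that formed within 2 weeks in CDC cultures given 10 µM SB431542, which blocks the kinase of the type I receptor of TGF-beta, and was then picked with a cloning cylinder. pEpiC are primary epicardial cells digested from hearts of 6- to 8-week-old mice and used at passage 3. The labels print the same treatment text for all 3 kinds, and it gives the inhibitor only for the cultures that the clone came from. Whether the clone stayed in the inhibitor after it was moved to a new plate is not given there. The labels list 1 sample per kind, while the table holds 3 library columns for each. These columns were taken as replicates (n = 3 throughout) because the extraction text speaks of separate samples, and whether they are separate animals, cultures or extractions is not stated. The methods of the study give fewer replicates per condition than the columns of the table. P-values therefore measure only the spread between these libraries, which may be technical, and for the CDC-EpiC kind they hold no spread between clones.

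Total expected counts were 22008833 to 22756045 per library. The labels were checked against marker genes, as sums of CPM (counts scaled to library size by the TMM method). Of 10 epicardial and mesothelial markers, all were above 3 counts in a library of CDC and of CDC-EpiC, with sums of 686 to 716 and 5793 to 6755. In the clone Upk3b (2655 ± 206 CPM), Lrrn4 (2122 ± 177) and Upk1b (1161 ± 88.3) gave most of the sum. Against CDC, 7 of the 10 were higher in the clone, Krt19 and Tbx18 were lower, and Aldh1a2 did not pass. In pEpiC the sum was 558 to 592 and Cdh1, the epithelial cadherin, lay at or under 3 counts in every library. Between pEpiC and CDC all 10 passed the edgeR test, 4 as higher in pEpiC (Wt1, Tcf21, Aldh1a2 and Lrrn4) and 6 as lower (Cdh1, Krt19, Msln, Tbx18, Upk1b and Upk3b), with a median log2 change of −0.91. Krt19, an epithelial keratin, was 29.0-fold lower and Upk3b, a mesothelial uroplakin, 3.31-fold lower in pEpiC. The 8 fibroblast markers summed to 5800 to 5952 in CDC, 3008 to 3261 in CDC-EpiC and 3842 to 3916 in pEpiC, but Vim alone gave 4377 ± 160, 2221 ± 135 and 1998 ± 9.59 CPM of these sums. Singly, 5 of the 8 were higher in pEpiC than in CDC and 3 were lower (Vim, S100a4 and Thy1), with a median log2 change of 2.26. Pdgfra, a receptor that marks fibroblasts, was at 29.0 ± 4.87 CPM in CDC, 60.9 ± 1.31 in CDC-EpiC and 352 ± 18.4 in pEpiC, and Postn, the matrix protein periostin, at 0.499 ± 0.325, 0.282 ± 0.218 and 534 ± 37.2 CPM. In the clone 1 of the 8, Pdgfra, was higher and 6 were lower than in CDC. The 6 smooth muscle markers summed to 2000 to 2508, 322 to 462 and 954 to 981 in the same order, but Acta2 alone gave means of 1955, 352 and 547 CPM. Of 5 tested between pEpiC and CDC, Des and Tagln were higher in pEpiC, Acta2 and Cnn1 were lower, and Myh11 did not pass. The median log2 change was 0.26. Against CDC, all 5 were lower in the clone. Macrophage markers (10 genes) summed to 72.4 to 74.0 in CDC and 30.0 to 32.8 in CDC-EpiC, but to 865 in pEpiC library 1 and to 330 and 302 in libraries 2 and 3. Cardiomyocyte markers (6 genes) summed to 14.9 and 14.7 in CDC libraries 1 and 2 and to 1.99 in library 3. Tendon and cartilage markers (7 genes) summed to 13.5 to 14.4 in CDC, 24.0 to 26.1 in CDC-EpiC and 58.9 to 61.3 in pEpiC, with Tnmd at or under 3 counts in every library. Sox9 alone gave 10.2 ± 0.841, 16.4 ± 2.02 and 57.6 ± 1.80 CPM of these sums. Of 3 tested between pEpiC and CDC, Sox9 was higher and Mkx lower in pEpiC, and Scx did not pass. Scx was highest in the clone, at 7.17 ± 0.571 CPM. The 6 endothelial markers summed to 1.04 to 2.03 in CDC, 1.63 to 1.86 in CDC-EpiC and 21.8 to 22.6 in pEpiC. All 3 that could be tested (Kdr, Tek and Vwf) were higher in pEpiC than in CDC, but Tek alone gave 17.6 ± 1.28 CPM of the pEpiC sum. Pecam1, Cdh5 and Emcn were too low to be tested, at 0.349, 0.437 and 0.218 CPM in pEpiC, and their libraries overlapped those of CDC. The part of these cell types in the results was not tested. Without pEpiC library 1 the proteoglycan calls against pEpiC were the same, while libraries 2 and 3 also held more macrophage marker counts than CDC. In such bulk libraries, fewer cells of a type and less RNA per cell cannot be told apart.

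The promoters of the members that went opposite ways in the clone are shown first, because the clone came from cultures in which TGF-beta signalling was inhibited. TGF-beta receptors act through SMAD proteins, whose short binding element is CAGAC. Each line gives the 250 bases before the annotated start (RefSeq, GRCm38.p6), 5′ to 3′ on the strand of the gene, with every CAGAC or its reverse complement GTCTG in capitals. Bgn and Prelp were lower in the clone than in CDC, and Fmod and Ogn were higher. Promoter sequences were matched for 6 of the 8 genes, leaving Dcn and Lum.
Bgn, chrX:73483351-73483600, plus strand: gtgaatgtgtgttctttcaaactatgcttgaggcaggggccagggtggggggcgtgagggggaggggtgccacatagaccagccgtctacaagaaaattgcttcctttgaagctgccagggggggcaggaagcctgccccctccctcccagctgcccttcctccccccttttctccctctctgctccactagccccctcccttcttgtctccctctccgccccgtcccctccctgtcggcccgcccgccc
Prelp, chr1:133921402-133921651, minus strand: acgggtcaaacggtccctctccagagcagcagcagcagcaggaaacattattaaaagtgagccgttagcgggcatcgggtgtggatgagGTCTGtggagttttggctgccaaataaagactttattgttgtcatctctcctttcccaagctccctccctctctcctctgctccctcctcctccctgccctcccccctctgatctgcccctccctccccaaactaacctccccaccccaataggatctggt
Fmod, chr1:134037004-134037253, plus strand: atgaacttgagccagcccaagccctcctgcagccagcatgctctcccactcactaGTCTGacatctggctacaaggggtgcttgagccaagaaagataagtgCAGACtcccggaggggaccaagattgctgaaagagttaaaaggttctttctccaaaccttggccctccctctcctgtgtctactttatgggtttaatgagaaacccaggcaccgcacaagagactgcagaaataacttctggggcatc
Ogn, chr13:49607765-49608014, plus strand: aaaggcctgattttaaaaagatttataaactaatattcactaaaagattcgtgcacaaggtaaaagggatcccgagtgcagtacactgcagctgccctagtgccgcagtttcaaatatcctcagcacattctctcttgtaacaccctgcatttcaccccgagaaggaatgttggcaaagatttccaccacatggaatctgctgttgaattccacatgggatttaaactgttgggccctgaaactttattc

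The element stands 2 times before Fmod and 1 time before Prelp, and not in these windows of Bgn, Ogn, Aspn or Omd. Of 32851 promoter windows of the same length, 42.2% hold it on either strand, against 2 of the 6 windows here, and it was found both in a gene that was higher and in a gene that was lower in the clone. The windows differ more in base composition. Bgn has 64.4% G and C and 3 matches to the GC box (GGGCGG, either strand, in 32.7% of all windows), of which the last 2 overlap. Prelp has 55.6%, Fmod 51.2%, Ogn 42.0%, Omd 38.4% and Aspn 30.0%, against a median of 52.4% over all windows. Prelp and Fmod, which went opposite ways in the clone, both lie near that median. TATAAA (either strand, in 12.4% of all windows) occurs 2 times each in the windows of Ogn and Aspn. In Ogn the 2 matches overlap, 1 on each strand, and form a single stretch, while in Aspn they stand apart. A match of this kind is a description of the letters and not of a bound site.

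As a pool, the 8 genes were most abundant in pEpiC and least abundant in the clone. For comparisons between genes, TPM was used, which is scaled to transcript length and to the same total in each library. Summed TPM was 5136, 4471 and 5741 in the CDC libraries, 2389, 2759 and 2339 in the CDC-EpiC libraries and 12610, 12830 and 12270 in the pEpiC libraries. These ranges did not overlap. The mean sum was 5116 ± 635 in CDC, 2496 ± 229 in CDC-EpiC and 12570 ± 282 in pEpiC (SD), so that pEpiC held 2.46 times the level of CDC and the clone 0.488 times. With FPKM, which is not brought to a common total, pEpiC held 1.89 times the level of CDC. As a share of all expected counts the 8 genes made up 0.620% to 0.726% in CDC, 0.256% to 0.308% in CDC-EpiC and 1.22% to 1.29% in pEpiC.

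The makeup of the pool differed as well as its size. Bgn made up 89.5%, 89.0% and 87.6% of summed TPM in the CDC libraries and 71.2%, 71.4% and 71.2% in the pEpiC libraries. In the clone it made up 19.2%, 20.4% and 23.1%. Dcn took the first place there, with 75.0%, 72.8% and 70.6%, against 7.68%, 8.02% and 9.67% in CDC and 17.8%, 17.3% and 17.4% in pEpiC. The ratio of Dcn to Bgn in TPM was therefore 0.0955 ± 0.0131 in CDC, 3.51 ± 0.427 in CDC-EpiC and 0.246 ± 0.00379 in pEpiC. Both genes belong to class I of the family, are close in sequence and can carry the same kind of chain.

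**Figure D1:**
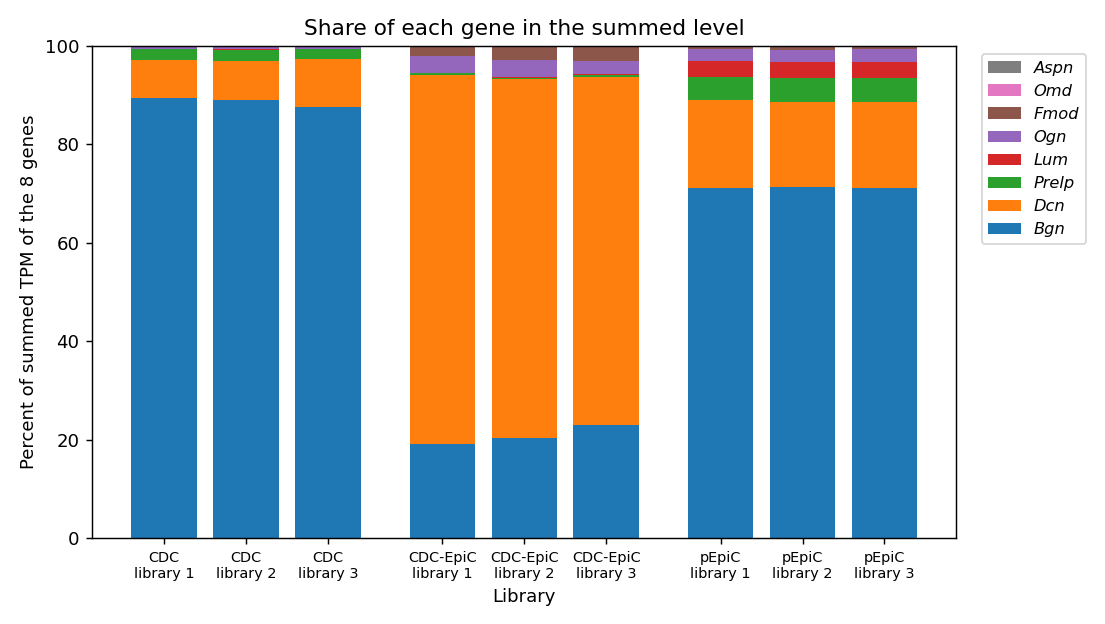
Stacked bars give the percent of the summed TPM of the 8 genes (vertical axis) that each gene made up in each of the 9 libraries (horizontal axis). Bgn fills 87.6% to 89.5% of the CDC bars and 71.2% to 71.4% of the pEpiC bars, and Dcn fills 70.6% to 75.0% of the CDC-EpiC bars. Omd and Aspn are too small to be seen.

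The order of the genes by mean TPM shifted accordingly. In CDC it ran Bgn, Dcn, Prelp, Ogn, Fmod, Lum, Omd and Aspn, with no overlap between the libraries of neighbours in the order. The order in pEpiC was Bgn, Dcn, Prelp, Lum, Ogn, Fmod, Aspn and Omd, again without overlap. The clone had Dcn, Bgn, Ogn, Fmod, Prelp, Omd, Lum and Aspn, and only its Ogn (80.7 TPM) and Fmod (64.8 TPM) overlapped. Bgn stood at rank 3 of all genes by TPM in each pEpiC library and at rank 11 to 29 in CDC. In CDC-EpiC its rank was 251 to 308.

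**Figure D2:**
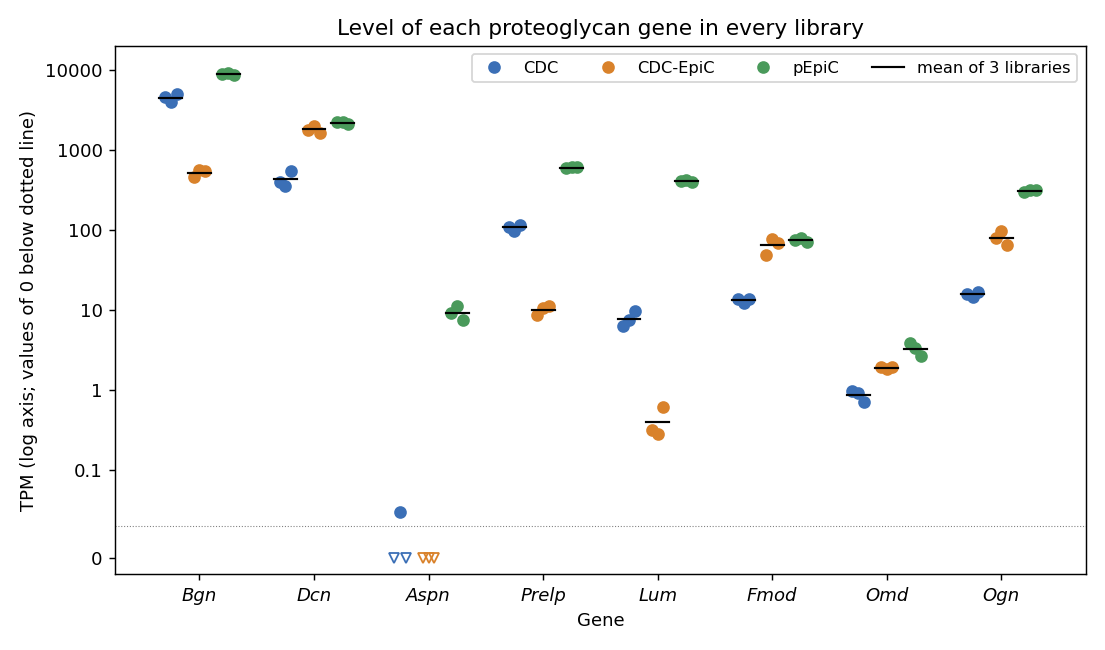
Each point is the TPM of a gene in 1 library on a log axis, with 3 libraries per kind and a black bar at the mean. Triangles under the dotted line are values of 0. Lum, Prelp and Bgn reach their lowest points in CDC-EpiC, while Dcn, Fmod, Ogn and Omd have their lowest points in CDC. Aspn was at 0 in 2 CDC libraries and in all 3 CDC-EpiC libraries.

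Comparing pEpiC with CDC asked how the matrix genes of the cultures named primary epicardial differed from those of the explant-derived cells. By markers the name held only in part. Of 10 epicardial and mesothelial markers 4 were higher and 6 lower in pEpiC than in CDC. Of 8 fibroblast markers 5 were higher and 3 lower. The paper grew pEpiC and CDC in different media, at different serum levels and on different dish coatings. Cell kind and culture conditions therefore cannot be told apart in this comparison. All 8 genes were higher in pEpiC, by the quasi-likelihood test of edgeR at an adjusted p of 0.05 (Benjamini-Hochberg over 13526 genes). Of all genes tested 78.3% passed, 39.8% as higher and 38.5% as lower in pEpiC, so a pass alone was common. The libraries of pEpiC and CDC did not overlap for any of the 8, as was the case for 81.5% of all genes tested. The median log2 change was 2.00 over the 8 genes and 0.02 over all genes. With TPM the median of all genes moved to 0.44, and 74.0% of calls were higher in pEpiC in place of 50.8%. Each of the 8 remained above that shifted median.

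The comparison of the clone with CDC asked what was different after the epithelial clone had been taken from cultures under the inhibitor. Exposure to the inhibitor, the picking of a clone and its epithelial state cannot be told apart in it. Dcn, Fmod, Ogn and Omd were higher in the clone and Bgn, Lum and Prelp were lower, so all 7 genes tested passed. Over all 12976 genes tested 68.8% passed, 34.2% higher and 34.6% lower, so a pass alone was common here too. None of the 7 overlapped between the kinds, as was the case for 72.1% of all genes tested. Aspn was not tested, as its counts did not pass the filter on low values. Here the scaling moved the median of all genes by less than 0.1 from its value of 0.00267.

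The comparison of the clone with pEpiC asked how the clone differed from the cultures named primary epicardial. The clone came from CDC cultures, which the paper grew under other conditions than pEpiC. Cell kind and culture conditions therefore cannot be told apart here either. Bgn, Prelp, Lum, Ogn and Aspn were lower in the clone, and none of the 8 passed as higher. Dcn, Fmod and Omd did not pass. Of 13547 genes tested 81.9% passed, 40.3% as higher and 41.5% as lower in the clone. The libraries did not overlap for 6 of the 8, all but Dcn and Fmod, and for 84.0% of all genes tested. The 3 comparisons share their libraries by pairs and are not independent of each other.

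**Figure D3:**
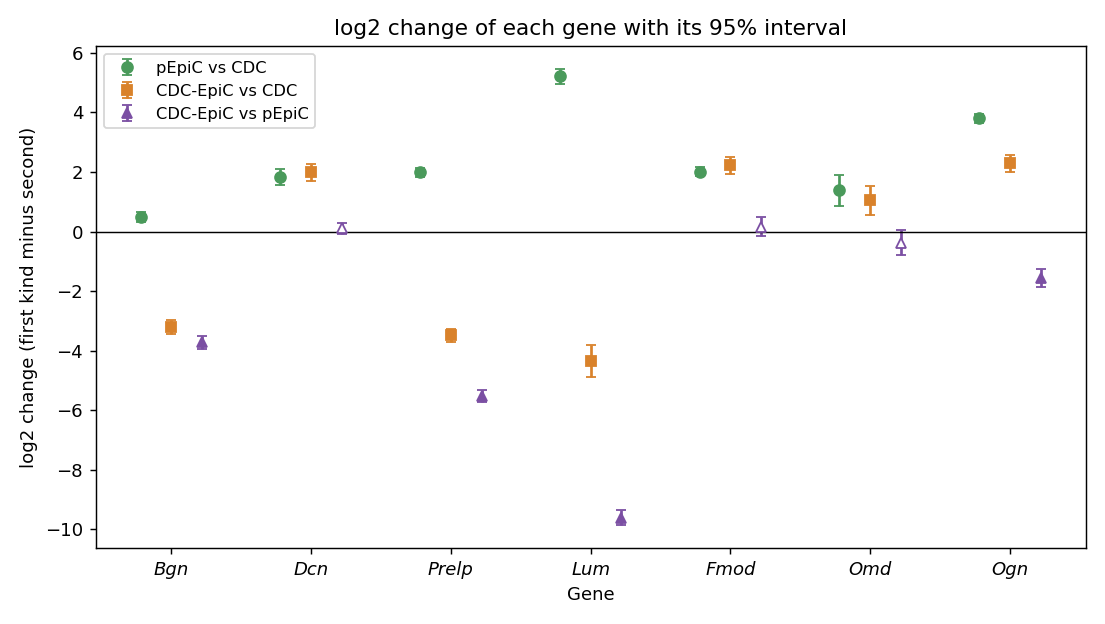
Points give the log2 change of each gene in the 3 comparisons with its 95% interval from edgeR (vertical axis, first named kind minus the second); filled points passed an adjusted p of 0.05. Bgn, Prelp and Lum lie below 0 in both comparisons of CDC-EpiC, and the CDC-EpiC vs pEpiC intervals of Dcn, Fmod and Omd include 0. Aspn is left out because it lay at the floor in CDC and CDC-EpiC.

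Bgn encodes biglycan, which binds collagen and, when set free, Toll-like receptors. Its level was 6431, 5630 and 6632 CPM in CDC, 601, 756 and 688 CPM in CDC-EpiC and 9124, 9029 and 8782 CPM in pEpiC. The 3 kinds did not overlap, and every clone library lay far under the others. It was 9.14-fold lower in the clone than in CDC (log2 change −3.20 ± 0.11 SE, edgeR adjusted p = 1.99e-12) and 13.2-fold lower than in pEpiC (−3.72 ± 0.09, edgeR adjusted p = 3.33e-10). Between pEpiC and CDC the difference was 1.44-fold (0.48 ± 0.07, edgeR adjusted p = 0.00012), the smallest of the 8, and it did not pass a test against a change of 1.5-fold. Bgn lies on chromosome X, at 73483602 to 73495933 of GRCm38 on the plus strand.

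Dcn encodes decorin, which wraps collagen I fibrils and binds TGF-beta. Its level was 427, 393 and 566 CPM in CDC, 1814, 2078 and 1625 CPM in CDC-EpiC and 1761, 1692 and 1658 CPM in pEpiC. All CDC libraries lay below all others, and the ranges of the clone and pEpiC overlapped. It was 3.98-fold higher in the clone (log2 change 1.99 ± 0.13, edgeR adjusted p = 2.99e-09) and 3.69-fold higher in pEpiC (1.84 ± 0.12, edgeR adjusted p = 3.01e-07) than in CDC. Between the clone and pEpiC the log2 change was 0.11, with a 95% interval of −0.08 to 0.30 (edgeR adjusted p = 0.266). On the TPM scale it was −0.28 (limma adjusted p = 0.00537), where the median of all genes lay at −0.34, and without CDC-EpiC library 3 it was 0.20 (edgeR adjusted p = 0.0444).

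Aspn encodes asporin, which has a stretch of aspartate residues and is known to bind TGF-beta and collagen. It had 0, 1 and 0 expected counts in the CDC libraries, 0 in each CDC-EpiC library and 207, 245 and 166 in the pEpiC libraries. Only the pEpiC libraries were above the floor of 3 counts per library. At 8.97 ± 1.70 CPM in pEpiC, it was at least 65.6-fold higher than that floor in CDC and at least 67.0-fold higher than the floor in CDC-EpiC. The edgeR adjusted p was 4.28e-08 against CDC and 2.40e-07 against the clone.

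Lum encodes lumican, a collagen-binding protein best known from the cornea. Its level was 7.47, 9.07 and 11.0 CPM in CDC and 354, 355 and 342 CPM in pEpiC. In CDC-EpiC it was 0.354, 0.318 and 0.665 CPM, resting on 8, 7 and 15 expected counts. The kinds did not overlap. It was 38.2-fold higher in pEpiC than in CDC (log2 change 5.21 ± 0.11, edgeR adjusted p = 2.97e-10) and 20.6-fold lower in the clone than in CDC (−4.35 ± 0.25, edgeR adjusted p = 6.07e-10). The clone was 787-fold below pEpiC (−9.60 ± 0.12, edgeR adjusted p = 1.25e-11).

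Fmod encodes fibromodulin, which shares a binding site on collagen I with lumican. Its level was 22.6, 20.5 and 21.4 CPM in CDC, 75.9, 122 and 103 CPM in CDC-EpiC and 90.7, 93.7 and 83.3 CPM in pEpiC. The CDC libraries were lowest, and the spread of the clone took in all pEpiC libraries. It was 4.67-fold higher in the clone (log2 change 2.22 ± 0.14, edgeR adjusted p = 1.27e-09) and 4.15-fold higher in pEpiC (2.01 ± 0.07, edgeR adjusted p = 4.44e-09) than in CDC. Between the clone and pEpiC the log2 change was 0.17, with a 95% interval of −0.14 to 0.48 (edgeR adjusted p = 0.284), and without CDC-EpiC library 1 it was 0.33 (edgeR adjusted p = 0.00559). On the TPM scale it was −0.24 (limma adjusted p = 0.141). The ratio of Lum to Fmod in TPM was 0.594 ± 0.128 in CDC, 0.00637 ± 0.00266 in CDC-EpiC and 5.45 ± 0.227 in pEpiC.

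Prelp encodes prolargin, which links basement membranes to the collagen beneath them. Its level was 229, 207 and 228 CPM in CDC, 17.2, 21.1 and 21.2 CPM in CDC-EpiC and 898, 900 and 917 CPM in pEpiC. The kinds did not overlap. It was 11.2-fold lower in the clone than in CDC (log2 change −3.49 ± 0.10, edgeR adjusted p = 1.72e-13) and 45.7-fold lower than in pEpiC (−5.52 ± 0.08, edgeR adjusted p = 3.45e-11). In pEpiC it was 4.09-fold higher than in CDC (1.99 ± 0.06, edgeR adjusted p = 3.09e-09). The ratio of Prelp to Fmod in TPM was 8.15 ± 0.251 in CDC and 8.05 ± 0.589 in pEpiC, with overlapping libraries, but 0.160 ± 0.0216 in CDC-EpiC.

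Omd encodes osteomodulin, known from bone and tooth. Its level was low in every kind, at 22.5, 21.7 and 16.0 expected counts in CDC, 44.5, 41.5 and 42.9 in CDC-EpiC and 67.5, 56.5 and 48.5 in pEpiC. The libraries of the kinds did not overlap. In CPM it was 2.08-fold higher in the clone (log2 change 1.05 ± 0.23, edgeR adjusted p = 0.00085) and 2.69-fold higher in pEpiC (1.38 ± 0.24, edgeR adjusted p = 0.000344) than in CDC. The clone minus pEpiC log2 change was −0.37, with a 95% interval of −0.79 to 0.05 (edgeR adjusted p = 0.0919). It passed under 6 of 19 alternatives, all as lower in the clone.

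Ogn encodes osteoglycin, also named mimecan, a class III member known from bone, vessels and the heart. Its level was 23.3, 21.8 and 23.0 CPM in CDC, 108, 137 and 87.5 CPM in CDC-EpiC and 316, 332 and 331 CPM in pEpiC. The 3 kinds stood apart, with the clone between the others. It was 4.89-fold higher in the clone than in CDC (log2 change 2.28 ± 0.13, edgeR adjusted p = 5.56e-10) and 14.4-fold higher in pEpiC than in CDC (3.80 ± 0.06, edgeR adjusted p = 1.01e-10). The clone was 2.94-fold below pEpiC (−1.56 ± 0.13, edgeR adjusted p = 1.74e-06).

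Several of the genes are neighbours in the mouse genome (GRCm38, GENCODE M21), and neighbours did not always go together in the clone. Dcn lies on chromosome 10 at 97479609 to 97518143 and Lum at 97565128 to 97572703, both on the plus strand and 46984 bases apart. Compared with CDC, the clone had more Dcn and less Lum. Prelp lies on chromosome 1 at 133910304 to 133921414 on the minus strand and Fmod at 134037254 to 134048277 on the plus strand, 115839 bases apart. There the clone had less Prelp and more Fmod. On chromosome 13 Aspn (49544443 to 49567565), Omd (49582462 to 49592822) and Ogn (49608046 to 49624501) follow one another on the plus strand, 14896 and 15223 bases apart. Omd and Ogn were both higher in the clone, while Aspn had no counts.

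These 3 genes lie within Cenpp, a centromere protein gene read from the opposite strand, which shares 7 exon bases with Aspn and none with Omd or Ogn. Cenpp was at 5.67 ± 0.444 CPM in CDC, 4.16 ± 0.456 in CDC-EpiC and 0.770 ± 0.254 in pEpiC, the reverse of the order of Ogn and Omd. Prelp shares 350 exon bases with an antisense transcript, Gm15851, that has no line in the table used here. Whether the counting used strand is not given in the sources used here, so the count of Prelp is uncertain to that extent.

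Over the 9 libraries, which fall into 3 clusters by kind, the genes whose log2(CPM + 1) followed each member most closely were listed as a description. Bgn was most like Podn, another gene of the family (podocan, Pearson r = 0.9995), followed by Gab2 (0.998). For Lum they were Dpep1 and Rbms3 (both 0.999), for Prelp Lpin3 and Pappa (both 0.999) and for Ogn Bace2 (0.998) and Fam160b1 (0.996). Dcn was most like Mkrn1 (0.997) and Dnmt3a (0.994), and Fmod most like Sema4b (0.996) and Mafg (0.995). The list was drawn from 10197 genes, and with only 3 clusters of points a high r says little more than that the 3 means are alike in spacing. Among the members themselves r was 0.978 for Dcn and Fmod and 0.970 for Bgn and Prelp, but −0.411 for Dcn and Bgn and 0.120 for Dcn and Lum.

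The gene lists that follow stand beside the shares over all genes tested. In pEpiC vs CDC these were 39.8% higher and 38.5% lower with a median log2 change of 0.02, and in CDC-EpiC vs CDC 34.2% higher and 34.6% lower with a median of 0.00267. In CDC-EpiC vs pEpiC they were 40.3% and 41.5% with a median of −0.02. The log2 change per doubling of transcript length was 0.448 in pEpiC vs CDC and −0.442 in CDC-EpiC vs pEpiC. The list medians below were not adjusted for length. Of the other 10 family genes, 9 were in the table. Against CDC, 3 of 8 tested were higher and 2 lower in pEpiC (median 0.24), and 2 of 7 were higher and 3 lower in the clone (median −0.39). Podn went the way of Bgn, with 44.4 ± 4.33 CPM in CDC, 2.98 ± 0.541 in CDC-EpiC and 71.5 ± 4.37 in pEpiC. It was 14.9-fold lower in the clone than in CDC (edgeR adjusted p = 7.44e-13). Tsku, which encodes the secreted signalling regulator tsukushi, was highest in CDC at 83.1 ± 5.65 CPM, against 22.3 ± 3.80 in CDC-EpiC and 40.6 ± 3.72 in pEpiC. Nyx, nyctalopin of retinal bipolar cells, was the other way about, with 15.4 ± 2.28 CPM in the clone and less than 1 CPM in both other kinds (29.0-fold higher than in CDC, edgeR adjusted p = 9.27e-12).

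The enzymes that build the sugar chains were taken by chain type. Of the chondroitin and dermatan sulfate enzymes (16 genes), 11 of 15 tested were higher and 1 lower in pEpiC than in CDC (median log2 change 0.41). In the clone 2 of 14 were higher and 9 lower than in CDC (median −0.90, against 0.00267 for all genes), and 13 of 15 were lower than in pEpiC (median −1.37). Csgalnact1, which starts the chondroitin chain, was at 1.43 ± 0.240 CPM in CDC, 0.224 ± 0.0478 in CDC-EpiC and 11.3 ± 0.401 in pEpiC. Chsy1, which lengthens the chain, was at 32.1 ± 0.815, 14.8 ± 1.12 and 44.0 ± 3.67 CPM in the same order. Chst12, which sulfates chondroitin at the 4-O position, was one of the exceptions, with 67.9 ± 2.62, 109 ± 9.12 and 92.1 ± 3.05 CPM.

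Keratan sulfate enzymes (7 genes, 5 tested) showed no common direction. In pEpiC 2 were higher and 3 lower than in CDC (median log2 change −0.34), and in the clone 1 was higher and 3 lower (median −0.59). Chst1, a keratan sulfate sulfotransferase, was at 19.5 ± 2.00 CPM in CDC, 11.4 ± 1.36 in CDC-EpiC and 2.38 ± 0.490 in pEpiC. B4galt4, a galactosyltransferase of the same chain, was at 36.1 ± 1.61, 60.7 ± 4.02 and 24.2 ± 0.683 CPM. With an offset for transcript length only 3 of the 5 passed between pEpiC and CDC, all lower in pEpiC.

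Enzymes of the linker that joins chondroitin, dermatan and heparan sulfate chains to their protein (8 genes) also went both ways. They were 3 higher and 4 lower in pEpiC than in CDC (median log2 change −0.16), and 1 higher and 4 lower in the clone than in CDC (median −0.28). Ugdh, which makes the sugar nucleotide for glucuronic acid, was at 228 ± 12.3 CPM in CDC, 118 ± 5.48 in CDC-EpiC and 126 ± 5.34 in pEpiC. Pxylp1, a phosphatase that acts on the xylose of the linker, was at 63.4 ± 6.35 CPM in CDC, 41.3 ± 0.272 in CDC-EpiC and 20.5 ± 1.16 in pEpiC, lower than CDC in both.

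Most of the collagens that these proteoglycans bind were, like Bgn, Lum and Prelp, higher in pEpiC and lower in the clone than in CDC. Of 11 genes, 8 of 10 tested were higher and 2 lower in pEpiC than in CDC (median log2 change 1.05). In the clone 2 of 9 were higher and 6 lower than in CDC (median −1.63), and 8 of 10 were lower than in pEpiC (median −2.98). Col12a1, a collagen on the surface of fibrils, was at 357 ± 62.3 CPM in CDC, 23.0 ± 3.09 in CDC-EpiC and 758 ± 46.3 in pEpiC. Col1a1, Col1a2 and Col3a1, chains of the main fibril collagens of the heart, are added here after their values were seen. Col1a1 was at 5339 ± 661, 1737 ± 213 and 11072 ± 816 CPM, and Col3a1 at 1276 ± 278, 206 ± 35.1 and 9008 ± 219 CPM, in the same order. Col1a2, the partner chain of Col1a1 in collagen I, was at 3915 ± 571, 3341 ± 417 and 9991 ± 469 CPM. Its libraries overlapped between the clone and CDC, and it did not pass there (log2 change −0.23, edgeR adjusted p = 0.0915).

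Collagen VI, a microfibrillar collagen bound by biglycan and decorin, was split. Col6a1 was at 1124 ± 60.5 CPM in CDC, 1712 ± 86.2 in CDC-EpiC and 322 ± 9.36 in pEpiC, and Col6a2 at 668 ± 45.7, 803 ± 39.3 and 150 ± 1.74 CPM. Both were higher in the clone and lower in pEpiC than in CDC. Col6a3 had 6, 8 and 3 expected counts in CDC and 2, 0 and 5 in CDC-EpiC, against 828, 909 and 847 in pEpiC.

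**Figure D4:**
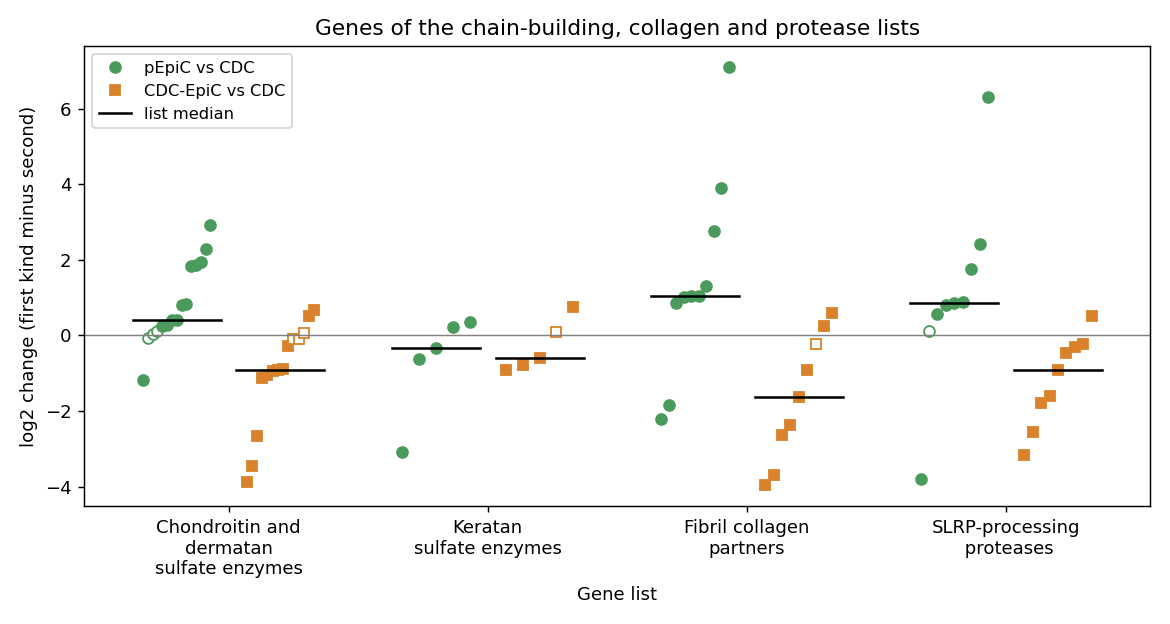
Each point is the log2 change of a gene (vertical axis, first named kind minus the second) in the pEpiC vs CDC comparison (circles) and the CDC-EpiC vs CDC comparison (squares), by gene list; filled points passed an adjusted p of 0.05 and black bars are medians. The medians for chondroitin and dermatan sulfate enzymes are 0.41 and −0.90, and those for fibril collagens are 1.05 and −1.63. Both comparisons use the same CDC libraries, and the values are not adjusted for transcript length.

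Proteases that cut or process these proteins (11 genes) were mostly higher in pEpiC and lower in the clone. Of 9 tested, 7 were higher and 1 lower in pEpiC than in CDC (median log2 change 0.87, where 39.8% of all genes were higher). In the clone 1 was higher and 8 lower than in CDC (median −0.92, where 34.6% of all genes were lower). Mmp2, a gelatinase, was at 12.8 ± 1.47 CPM in CDC, 2.19 ± 0.164 in CDC-EpiC and 1046 ± 43.7 in pEpiC. Mmp13, a collagenase that cuts fibromodulin, was highest in CDC at 39.0 ± 7.22 CPM, against 12.97 ± 4.45 in CDC-EpiC and 2.91 ± 0.525 in pEpiC. Pcolce, which speeds the trimming of procollagen by Bmp1, was the 1 gene of the list that was higher in the clone than in CDC, with 409 ± 25.2 CPM in CDC, 591 ± 57.2 in CDC-EpiC and 772 ± 13.9 in pEpiC. With TPM and limma, 5 of 8 tested passed between the clone and CDC, 1 higher and 4 lower.

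Among 8 receptors linked to these proteins, 5 were higher and 1 lower in pEpiC than in CDC (median log2 change 0.79), where 78.3% of all genes passed. In the clone 4 were higher and 3 lower than in CDC (median 0.00313), where 68.8% of all genes passed. Lrp1, which takes up decorin, was at 1249 ± 202 CPM in CDC, 642 ± 63.1 in CDC-EpiC and 3568 ± 195 in pEpiC. Met, which binds decorin, was at 74.9 ± 10.8, 63.9 ± 3.40 and 25.5 ± 1.63 CPM. Tlr2 and P2rx7, through which free biglycan signals, are also used by macrophages. Tlr2 was at 8.42 ± 1.76 CPM in CDC, 15.3 ± 1.32 in CDC-EpiC and 17.8 ± 1.14 in pEpiC, and P2rx7 at 0.213 ± 0.0272, 0.805 ± 0.131 and 18.6 ± 1.01 CPM. Macrophage marker sums were also highest in pEpiC, at 302 to 865 CPM, and their part in these levels was not tested.

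Other core proteoglycans (24 genes) were compared to place the small ones. In pEpiC 12 of 19 tested were higher and 6 lower than in CDC (median log2 change 0.60), and in the clone 4 of 17 were higher and 9 lower (median −0.62). Vcan, the large chondroitin sulfate proteoglycan versican, was at 109 ± 14.5 CPM in CDC, 9.11 ± 1.15 in CDC-EpiC and 32.3 ± 5.37 in pEpiC. Unlike the 8 small ones, it was lower in pEpiC than in CDC (edgeR adjusted p = 4.59e-07). Prg4, the joint and mesothelial lubricant lubricin, was at 11.7 ± 2.24, 335 ± 47.7 and 5.14 ± 0.254 CPM, 28.6-fold higher in the clone than in CDC (edgeR adjusted p = 2.48e-13). Gpc3, a glypican anchored in the membrane, was at 0.986 ± 0.302 CPM in CDC and 42.9 ± 4.43 in pEpiC and lay at the floor in the clone, with 1, 0 and 0 counts.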

How the data were processed

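The 9 libraries were sequenced as paired reads on a BGISEQ-500. The submitters' processing notes name HISAT2 2.0.4, Bowtie2 2.2.5, RSEM 1.2.12, DESeq2 1.4.5 and the build mm10. The authors deposited expected counts per gene (30.3% of values not whole), FPKM and TPM for each. Their columns of group means were not used. Libraries of a kind differed by more than sampling of reads (chi-square per degree of freedom 4.89 to 23.0) and were taken as replicates.

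Expected counts were rounded and tested pair by pair (6 libraries) in edgeR 4.0.16 under R 4.3.3, with filterByExpr (minimum count 10, minimum total 15), TMM and the quasi-likelihood test with Benjamini-Hochberg adjustment over all genes. The procedure was tested on simulated data. CPM was scaled by TMM over all 9 libraries. Alternatives used DESeq2 1.42.0, limma 3.58.1 on log2(TPM + 1), log2(TPM + 0.1) and log2(FPKM + 1), other scalings and filters, an offset for effective length, a replicate block, a test against 1.5-fold and each library left out. At most 3 counts in every library was the floor. The 95% intervals of log2 changes are edgeR's and rest on the spread between libraries. The floor covers counting error only, since PCR copies are not independent molecules. Python 3.11.15, pandas 2.3.3, NumPy 2.4.6 and matplotlib 3.10.9 were used for the rest.

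The members and gene lists were chosen with earlier results of these data known. Named were all 8 members, the 2 genes most like each member of at least 10 CPM by Pearson r, and from each list the gene with the largest rise and the gene with the largest fall past the threshold at 10 CPM or more. Other genes were named after their values were seen.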

Additional observations from a re-analysis of the deposited data

How the results depend on the processing

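The number of members past the threshold was 7 to 8 for pEpiC vs CDC, 6 to 7 for CDC-EpiC vs CDC and 4 to 7 for CDC-EpiC vs pEpiC over the alternatives, and 8 to 8, 7 to 7 and 5 to 6 with a library left out. The lower counts came with a minimum of 10 counts in every library, which removes Aspn, Lum or both, and with the test against 1.5-fold. Of 433 alternative values of 23 member changes, 417 kept direction and side of the threshold, 1 lost it, 8 passed it newly and 7 reversed. All reversals were between CDC-EpiC and pEpiC. Dcn became −0.28 with log2(TPM + 1), with log2(TPM + 0.1) and without a filter, and −0.22 with the effective-length offset (adjusted p 0.00537 to 0.0294). Fmod became −0.24 in the first 3 of these (adjusted p 0.141 to 0.231). On the TPM scale the median of all genes moved to −0.34 in this comparison and to 0.44 in pEpiC vs CDC. The log2 change per doubling of transcript length was 0.448 in pEpiC vs CDC, 0.0166 in CDC-EpiC vs CDC and −0.442 in CDC-EpiC vs pEpiC. The cause was not tested.

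With expected counts in place of TPM, Dcn made up 6.60% of the pool in CDC, 66.7% in CDC-EpiC and 13.8% in pEpiC, and Bgn 24.8% in CDC-EpiC and 72.6% in pEpiC. The summed level of pEpiC over CDC was 1.89 with FPKM and 1.86 with counts, that of CDC-EpiC over CDC 0.403 with counts and that of CDC-EpiC over pEpiC 0.255 with FPKM, against 0.199 with TPM. Of 72 alternative list counts, 4 moved by over 1.5 times. Of the genes most like a member, those of Bgn were the same with TPM, while Lum and Ogn shared 1 of 2 and Dcn, Fmod and Prelp none.

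The library numbers did not pair the kinds, with same-number correlations of deviations from −0.147 to 0.185, and no label gives them. With the replicate block, 8, 7 and 5 members passed. Lum in CDC-EpiC (7 to 15 counts) and Omd are limited by depth.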
